A study of Homo sapiens with 8 samples.

Results

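The annexins and the S100 proteins are a pair of families of calcium-binding proteins. Their genes were taken as every symbol made of ANXA and a number, or of S100A and a number, together with S100B, S100G, S100P and S100Z, with pseudogenes left out. Of 31 such genes in the RefSeq table, 30 had a probe on the array, 11 annexin and 19 S100 genes of 19796 genes with a symbol and a probe, and ANXA8 matched none. LNCaP cells, a line derived from a lymph node metastasis of a human prostate cancer, had been transfected with 30 nM of an siRNA against GATA2 (siGATA2) or of a control siRNA (siControl), and their RNA was measured at 72 h on 8 Agilent arrays of 1 colour. By their labels 4 arrays were siGATA2 and 4 were siControl, and the labels give them 1 growth and transfection protocol. GATA2 is a pioneer transcription factor of prostate cells, and the comparison asks which transcripts differ once it is targeted. Values are log2 processed signals after quantile normalization, and log2 fold changes, which are above 0 where siGATA2 was higher, come from a limma fit over 28850 genes with Benjamini-Hochberg adjustment. The 28850 genes include entries known only by another accession or a noncoding locus, and so do the shares of all genes given below. A gene was called at an adjusted p under 0.05.

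Annexins are cytoplasmic proteins that bind the acidic phospholipids of membranes when calcium rises, and they take part in membrane repair, vesicle traffic and the control of inflammation. S100 proteins are small EF-hand proteins that mostly act as dimers and change shape on binding calcium, which opens a surface for other proteins. Some S100 dimers bind the N-terminal tails of annexins and can bridge membranes, the best known being S100A10 with ANXA2, S100A11 with ANXA1 and S100A6 with ANXA11. Most S100 genes stand side by side on the long arm of chromosome 1, and ANXA1, ANXA2 and several S100 genes are known for levels that change in prostate cancer.

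GATA2 itself was not lower on the arrays labelled siGATA2. Its 1 probe read 12.61, 12.54, 11.57 and 11.40 with siGATA2 and 11.74, 11.28, 11.10 and 11.29 with siControl, each in the order of the replicate numbers, as in all values by array given here (log2 fold change 0.68, SE 0.312, adjusted p = 0.154). Every direction given here therefore rests on the labels of the arrays, and the study's separate measurements of GATA2 protein were not analysed here. Of the markers of LNCaP cells, 8 of 8 luminal prostate genes were well above background on all 8 arrays, against 0 of 4 basal and 1 of 5 fibroblast markers. Of the 4 myeloid markers with a probe, 3 (PTPRC, CD14 and ITGAM) were well above background on all 8 arrays. CSF1R was so on 4 siGATA2 and 2 siControl arrays. With siGATA2, 2 were called higher, PTPRC by 0.87 and CSF1R by 0.53, beside 12.3% of all genes. CD14 (log2 fold change -0.02) and ITGAM (0.24) were not called. The 4 markers had summed signals of 906 to 1010 intensity units on the siGATA2 arrays and 628 to 726 on the siControl arrays. The part of other cells in the S100 results was not tested.

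The arrays also grouped by the letter in their titles. Arrays titled A or B (siGATA2 1 and 2, siControl 1) and arrays titled D to G (siGATA2 3 and 4, siControl 2, 3 and 4) formed separate sets. A robust SD of the log2 differences between arrays, over probes with a mean over 10, was 0.0853 to 0.134 for the 5 pairs of arrays of 1 group and 1 set, and 0.388 to 0.542 for the 7 pairs of 1 group in different sets. Repeated spots of 1 probe on 1 array gave 0.0544 to 0.0816 for the same kind of difference between single spots. The sources do not say what the letters stand for or whether the 4 arrays of a group came from separate cultures, so the p-values measure the spread between these arrays, which may in part be technical. When the arrays of a group and set were averaged, which left 2 values per group, limma called 0 of 28850 genes, with 4900 at an unadjusted p under 0.05, and 0 of the annexin and S100 genes, with 6 at an unadjusted p under 0.05. The differences within each set are therefore given beside the results. A probe counts as well above background where Feature Extraction marked at least 1 of its spots so, spots marked as outliers included. The arrays siControl 1 and 3 had the fewest such probes, 28560 and 24438 against 34091 to 37033 on the other arrays.

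Promoters are shown for the genes whose signals fell most, ANXA1 and S100A11, and for the 5 neighbouring S100 genes that were higher together, each at its most upstream start. The sequences are from RefSeq on GRCh38.p14 and run 5′ to 3′ on the strand of the gene, from 250 bases before to 50 bases after a start. Capitals mark words that GATA factors can bind, on either strand. These are AGATAA, the same word with another first letter, TGATAA, and with another last letter, AGATAG, or with both changed, TGATAG. ANXA1 (chr9:73151615-73151914, plus strand), S100A11 (chr1:152036955-152037254, minus strand), S100A2 (chr1:153565795-153566094, minus strand), S100A14 (chr1:153616276-153616575, minus strand) and S100A1 (chr1:153628184-153628483, plus strand) held none of these words. S100A16 (chr1:153613088-153613387, minus strand) held TGATAG and, without overlap, CTATCT, while S100A13 (chr1:153634312-153634611, minus strand) held CTATCA.
ANXA1: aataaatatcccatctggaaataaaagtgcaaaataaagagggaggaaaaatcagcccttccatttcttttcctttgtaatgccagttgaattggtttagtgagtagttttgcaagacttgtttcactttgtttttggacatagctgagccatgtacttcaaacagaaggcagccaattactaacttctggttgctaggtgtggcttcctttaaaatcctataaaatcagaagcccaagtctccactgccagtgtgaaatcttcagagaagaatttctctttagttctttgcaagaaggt
S100A11: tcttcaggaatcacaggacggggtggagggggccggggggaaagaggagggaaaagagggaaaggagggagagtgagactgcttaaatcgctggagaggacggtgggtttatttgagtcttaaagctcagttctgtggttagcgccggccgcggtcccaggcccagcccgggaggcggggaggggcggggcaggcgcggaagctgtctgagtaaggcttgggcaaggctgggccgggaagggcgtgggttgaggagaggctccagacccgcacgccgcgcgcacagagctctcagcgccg
S100A2: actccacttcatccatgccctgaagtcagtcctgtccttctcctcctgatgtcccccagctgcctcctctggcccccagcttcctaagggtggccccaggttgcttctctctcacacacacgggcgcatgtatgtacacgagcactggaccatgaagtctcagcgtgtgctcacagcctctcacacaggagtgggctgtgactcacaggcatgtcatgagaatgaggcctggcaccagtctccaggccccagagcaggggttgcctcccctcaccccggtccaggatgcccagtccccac
S100A16: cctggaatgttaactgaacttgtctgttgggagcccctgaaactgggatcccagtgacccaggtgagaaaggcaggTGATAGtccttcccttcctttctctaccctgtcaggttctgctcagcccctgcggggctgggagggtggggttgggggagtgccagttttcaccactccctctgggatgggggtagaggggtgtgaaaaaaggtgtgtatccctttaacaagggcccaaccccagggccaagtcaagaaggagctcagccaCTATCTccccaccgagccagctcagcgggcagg
S100A14: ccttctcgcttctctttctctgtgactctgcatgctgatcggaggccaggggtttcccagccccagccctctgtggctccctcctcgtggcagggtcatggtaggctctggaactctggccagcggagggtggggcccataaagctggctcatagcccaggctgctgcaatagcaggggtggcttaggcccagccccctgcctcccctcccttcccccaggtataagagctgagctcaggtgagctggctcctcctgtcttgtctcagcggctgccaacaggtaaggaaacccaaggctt
S100A13: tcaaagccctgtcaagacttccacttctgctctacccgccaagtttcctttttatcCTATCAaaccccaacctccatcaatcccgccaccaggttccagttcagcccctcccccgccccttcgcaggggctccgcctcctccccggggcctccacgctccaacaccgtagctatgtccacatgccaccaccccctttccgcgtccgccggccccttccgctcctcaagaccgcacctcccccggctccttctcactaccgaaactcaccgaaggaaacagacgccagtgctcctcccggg
S100A1: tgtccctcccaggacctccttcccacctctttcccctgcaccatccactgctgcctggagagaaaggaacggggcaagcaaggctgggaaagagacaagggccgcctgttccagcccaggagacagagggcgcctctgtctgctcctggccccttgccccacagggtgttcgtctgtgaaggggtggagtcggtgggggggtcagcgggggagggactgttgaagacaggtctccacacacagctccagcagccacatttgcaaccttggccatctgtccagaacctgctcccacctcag
The table lists 4 further windows of these 5 neighbours, 1 each of S100A2 and S100A16 and 2 of S100A13, and they held none of the words. At least 1 such word stood in a promoter of 5 of the 26 annexin and S100 genes tested (19.2%) and of 7937 of 27305 genes in the promoter table (29.1%). Of the 4 genes called lower 0 held one, and of the 7 called higher 3 did, S100A16, S100A13 and ANXA7. A match of letters describes the window and is no evidence of binding.

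Of the 30 genes with a probe, 26 had a mean signal of at least 3 and were tested, 9 annexin and 17 S100 genes. ANXA3, ANXA13, S100B and S100G were below that limit, and of these only ANXA13 was well above background on any array, on 1. Among the 26 genes, siGATA2 arrays were lower for 4 (15.4%) and higher for 7 (26.9%), while 14.2% of all genes tested were lower and 12.3% higher. At least 2-fold changes were fewer. Here 2 genes were lower (7.69%) and 2 higher (7.69%), beside 7.13% and 4.52% of all genes. The groups of arrays did not overlap for 12 of the 26 genes (46.2%), against 32.6% of all genes. The 12 were the 11 genes called and S100A9, which was well above background on 1 array. The mean of S100A9 was 3.47 on the siControl arrays and 2.71 on the siGATA2 arrays, so it passed the limit of 3 through the siControl arrays alone. The median log2 fold change was 0.02 over the 26 genes and 0.09 over all genes. Of the 26 genes, 14 were well above background on all 8 arrays, and of these 3 were lower, 4 higher and 7 not called.

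The annexins were divided in direction, with 3 of 9 lower (33.3%, against 14.2% of all genes), 2 higher (22.2%, against 12.3%) and 4 not called (median -0.13, against 0.09 over all genes). ANXA1, a glucocorticoid-induced protein that limits inflammation, had the lowest log2 fold change of the 26 genes. Its signal was 3.18, 3.63, 4.32 and 3.87 on the siGATA2 arrays and 5.36, 6.52, 6.25 and 6.58 on the siControl arrays. Every siGATA2 array lay below every siControl array. The means were 3.75 ± 0.478 and 6.18 ± 0.564 (SD, n = 4 each), a log2 fold change of -2.43 (SE 0.334, 95% interval -3.20 to -1.66, adjusted p = 0.00121), or 5.39-fold lower. Within titles A and B the difference was -1.96 and within D to G -2.36. ANXA1 was close to background, with 7 of 8 arrays well above background and siControl 3 not, and normexp background correction, whose offset shrinks the folds of dim probes, gave -0.78.

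ANXA5, which binds phosphatidylserine and is widely used to stain dying cells, was also lower. It read 12.06, 12.11, 12.72 and 12.69 on the siGATA2 arrays and 13.09, 13.28, 13.30 and 13.19 on the siControl arrays, without overlap. The log2 fold change was -0.82 (SE 0.183, 95% interval -1.25 to -0.40, adjusted p = 0.0124), 1.77-fold lower. The siGATA2 arrays titled A and B lay below those titled E and F, and the difference was -1.01 within titles A and B and -0.55 within D to G. With the slide row as a block the adjusted p of ANXA5 was 0.0633. ANXA4, an annexin of epithelial cells that binds the same kind of membranes, fell by a smaller amount, from a range of 12.06 to 12.21 to a range of 11.41 to 11.90 (log2 fold change -0.48, SE 0.142, adjusted p = 0.0412, with -0.66 within titles A and B and -0.27 within D to G). Its call was lost in 12 of 22 alternatives, among them leaving out siGATA2 1 (adjusted p = 0.0992) or 2 (0.102), or siControl 1 (0.0575), 2 (0.107), 3 (0.0882) or 4 (0.0812).

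ANXA7 and ANXA9 were the annexins called higher. ANXA7, or synexin, was named for its action on the fusion of secretory granules. It read 14.51, 14.52, 14.92 and 14.92 on the siGATA2 arrays and 14.20, 14.21, 14.12 and 14.08 on the siControl arrays (log2 fold change 0.57, SE 0.135, adjusted p = 0.0165, with 0.31 within titles A and B and 0.79 within D to G). The groups did not overlap, but a second ANXA7 probe, also well above background on all 8 arrays, gave 0.21 (SE 0.193, adjusted p = 0.460) with overlapping groups, and without siControl 4 the adjusted p of the brighter probe was 0.0530. ANXA9, a divergent annexin of epithelia, lay within 11.01 to 11.12 on the siGATA2 arrays and within 10.47 to 10.55 on the siControl arrays. Its log2 fold change of 0.57 (SE 0.0866, adjusted p = 0.00197) had the smallest SE of the 26 genes, with 0.63 within titles A and B and 0.53 within D to G. The probe was printed as 10 spots, and the SD between spots was 0.0289 to 0.0683 per array. Under scaling to the E1A spike-in probes, ANXA7 changed to -0.13 and ANXA9 to -0.04.

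**Figure D1:**
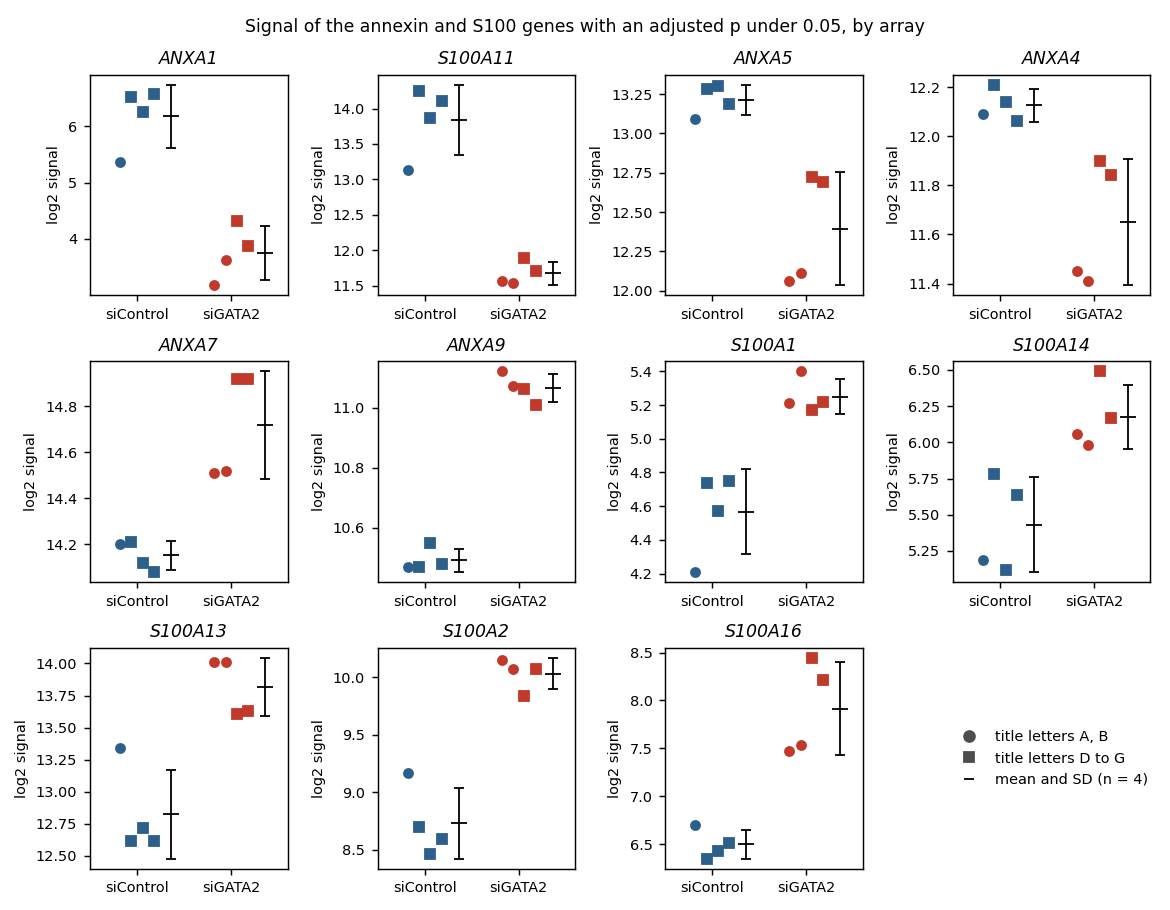
Log2 signal (vertical axis, a separate range in each panel) of the 11 annexin and S100 genes with an adjusted p under 0.05, by group, with 1 point per array, circles for titles A and B, squares for titles D to G, and the mean with its SD (n = 4) to the right of each group. In each panel the siGATA2 arrays all lie on 1 side of the siControl arrays, and in most panels the circles and squares of siGATA2 are apart too. The squares are higher for ANXA1, S100A11, ANXA5, ANXA4, ANXA7, S100A14 and S100A16, and lower for S100A13 and, by little, ANXA9.

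The other 4 annexins tested did not pass. ANXA2, the membrane-linked partner of S100A10, read 3.89, 4.46, 5.29 and 4.95 on the siGATA2 arrays and 5.28, 5.79, 4.02 and 5.90 on the siControl arrays (log2 fold change -0.60, SE 0.469, 95% interval -1.68 to 0.48, adjusted p = 0.386), with 6 of 8 arrays well above background. The groups overlapped because of siControl 3 and siControl 1, the first below 3 and the second below 1 of the siGATA2 arrays. A second ANXA2 probe had a log2 fold change of -1.52 (SE 0.311, adjusted p = 0.00835), yet it was well above background on 1 array. Its means were 2.31 with siGATA2 and 3.83 with siControl, so it passed the limit of 3 through the siControl arrays alone. The mean over the probes of ANXA2, which includes this probe, was -1.06 (adjusted p = 0.0207). ANXA6, a large annexin with a doubled core, read 12.46, 12.45, 12.15 and 12.62 on the siGATA2 arrays and 11.82, 12.65, 12.84 and 12.86 on the siControl arrays. Its log2 fold change was -0.13 (95% interval -0.69 to 0.44, adjusted p = 0.737), with 0.63 within titles A and B and -0.40 within D to G. ANXA11, a ligand of S100A6 that also links RNA granules to lysosomes, read 13.81, 13.81, 14.19 and 14.03 against 13.70, 14.16, 14.11 and 14.20, a log2 fold change of -0.08 (95% interval -0.44 to 0.27, adjusted p = 0.719). ANXA10 was well above background on 3 arrays (log2 fold change -0.10, adjusted p = 0.857).

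S100A11 was the 1 S100 gene called lower. Its protein, S100C or calgizzarin, binds the tail of ANXA1 and takes part in membrane repair. It read 11.56, 11.53, 11.89 and 11.71 on the siGATA2 arrays and 13.13, 14.25, 13.87 and 14.11 on the siControl arrays, so the groups were well apart and siControl 1 was the lowest of its group. The means were 11.67 ± 0.168 and 13.84 ± 0.498 (SD, n = 4 each), a log2 fold change of -2.17 (SE 0.244, 95% interval -2.74 to -1.61, adjusted p = 0.000442), or 4.50-fold lower. A second probe gave the same value, -2.17 (SE 0.230, adjusted p = 0.000327), with 11.23 to 11.66 against 12.96 to 13.97. The difference was -1.59 within titles A and B and -2.28 within D to G, and -2.83 under spike-in scaling. There S100A11 and ANXA1 (-2.84) were the 2 genes called among the 25 in that fit, beside 2021 of all 28820 genes. With the arrays of each title set averaged it was -1.93 (adjusted p = 0.119).

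Against this, 5 of the 17 S100 genes were called higher (29.4%, against 12.3% of all genes) and 11 were not called (median 0.40). The 5 were S100A2, S100A16, S100A14, S100A13 and S100A1. In the RefSeq order of protein-coding genes on chromosome 1 they stand next to one another, without another protein-coding gene between them. Of the 15 S100 genes on that chromosome, S100A10 and S100A11 lie apart, with 47 protein-coding genes between S100A11 and S100A9, and the other 13 follow from S100A9 to S100A1.

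S100A2, a mostly nuclear S100 protein of basal epithelia that is often low in prostate cancer, rose without overlap. It read 10.15, 10.07, 9.84 and 10.07 on the siGATA2 arrays and 9.17, 8.70, 8.46 and 8.59 on the siControl arrays (means 10.03 ± 0.131 and 8.73 ± 0.312, SD, n = 4 each). The log2 fold change was 1.30 (SE 0.169, 95% interval 0.91 to 1.69, adjusted p = 0.000915), 2.47-fold higher, with 0.94 within titles A and B and 1.37 within D to G. The 4 basal markers, KRT5, KRT14, KRT6A and TP63, had summed signals of 68.7 to 101 intensity units on the siGATA2 arrays and 65.6 to 112 on the siControl arrays, and none was well above background on all 8. S100A16, a widely expressed member, had the highest log2 fold change of the 26 genes. It read 7.47, 7.54, 8.44 and 8.21 against 6.70, 6.35, 6.43 and 6.51, or 1.42 (SE 0.237, 95% interval 0.87 to 1.97, adjusted p = 0.00326), 2.67-fold higher. The siGATA2 arrays titled E and F were above those titled A and B, and the difference was 0.80 within titles A and B and 1.90 within D to G. All arrays but 1 siControl array were well above background for S100A16.

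S100A13, which takes part in the release of proteins that lack a signal peptide, such as FGF1, followed the same direction. It read 14.01, 14.01, 13.61 and 13.63 on the siGATA2 arrays and 13.34, 12.62, 12.72 and 12.62 on the siControl arrays. Even the highest siControl array, siControl 1, lay below every siGATA2 array, and the log2 fold change was 0.99 (SE 0.199, 95% interval 0.53 to 1.45, adjusted p = 0.00788), 1.98-fold higher, with 0.66 within titles A and B and 0.97 within D to G. S100A14, a regulator of cell adhesion and motility, lay within 5.98 to 6.49 on the siGATA2 arrays and within 5.12 to 5.78 on the siControl arrays (log2 fold change 0.75, SE 0.191, adjusted p = 0.0228, with 0.84 within titles A and B and 0.82 within D to G). Its call was lost in 9 of 22 alternatives, among them without siGATA2 3 (adjusted p = 0.0557), siGATA2 4 (0.0520) or siControl 3 (0.0563), with the slide row as a block (0.0984), with normexp (log2 fold change 0.25, adjusted p = 0.0509) and against siControl 2 and 4 alone (0.47, adjusted p = 0.111). S100A1, the S100 protein of heart and skeletal muscle, lay within 5.17 to 5.40 against 4.21 to 4.75 (log2 fold change 0.68, SE 0.146, adjusted p = 0.0105, with 1.10 within titles A and B and 0.51 within D to G). Its second probe gave 1.25 (SE 0.511, adjusted p = 0.111), normexp gave 0.24, and its call was lost with the slide row as a block (adjusted p = 0.0553) and with the mean over probes (adjusted p = 0.0520). S100A14 and S100A1 were each well above background on 6 of 8 arrays, with siControl 1 and 3 below. S100A13 and S100A1 overlap on opposite strands in the annotation, and which of them a probe in the overlap reads was not tested.

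**Figure D2:**
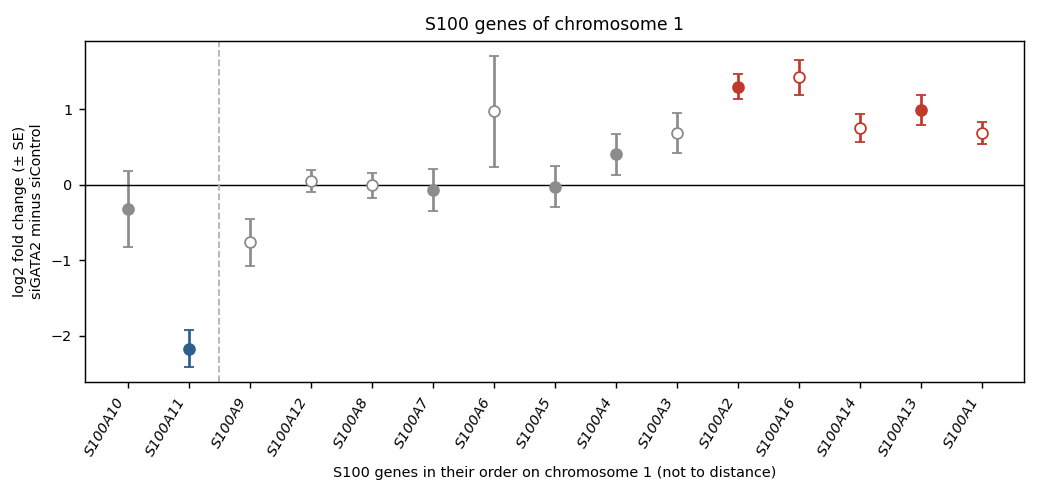
Log2 fold change (vertical axis, siGATA2 minus siControl, with its SE) of the 15 S100 genes of chromosome 1 in their order along it (horizontal axis, not to distance). Red is called higher, blue called lower and grey not called, open circles are genes not well above background on every array, and the dashed line marks the gap of 47 protein-coding genes. The 5 genes at the right end, S100A2 to S100A1, were all called higher, and S100A11 at the left was the 1 called lower.

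The run did not end at the last S100 gene. CHTOP, the next protein-coding gene, named here after its values were seen, encodes a chromatin-bound factor of RNA export and was also higher (log2 fold change 0.71, SE 0.133, adjusted p = 0.00546). The gene after it, SNAPIN, did not pass (0.40, SE 0.138, adjusted p = 0.0711). On the other side of the run, S100A3 had a log2 fold change of 0.69 (SE 0.265, adjusted p = 0.0974), S100A4 of 0.40 (adjusted p = 0.323) and S100A5 of -0.03 (adjusted p = 0.956). S100A3 was called without siControl 1 (0.85, adjusted p = 0.0455). Scaling to the spike-in probes left all 5 genes of the run above 0, at 0.31 for S100A13 to 1.02 for S100A16, but called 0 of them (limma, 0 at an unadjusted p under 0.05). The spike-in mean was 11.13 on siControl 1 and 13.45 to 13.83 on the other arrays, and the median of all genes moved to -0.42 under that scaling.

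The remaining S100 genes differed less or were close to background. S100P, an S100 protein first found in placenta, lay within 11.56 to 12.04 against 11.53 to 11.75 (log2 fold change 0.14, 95% interval -0.18 to 0.47, adjusted p = 0.484). S100A10, the subunit that joins ANXA2 in a heterotetramer, spread widely among the siGATA2 arrays. It read 7.95, 7.92, 9.75 and 9.78 there and 8.60, 9.60, 9.19 and 9.31 on the siControl arrays, a log2 fold change of -0.32 (95% interval -1.49 to 0.84, adjusted p = 0.668). Its signal was lower with siGATA2 within titles A and B (-0.67) and higher within D to G (0.40), a difference that was not tested. S100A4, or metastasin, known for its part in cell motility, lay within 7.63 to 8.61 against 7.20 to 7.92, and was called with the title sets as a block (0.57, adjusted p = 0.0104), an alternative added after the data were seen.

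S100A6, or calcyclin, the partner of ANXA11, read 4.00, 3.93, 4.36 and 4.48 on the siGATA2 arrays and 1.80, 4.60, 1.81 and 4.68 on the siControl arrays. Its log2 fold change of 0.97 (SE 0.731, adjusted p = 0.368) came from siControl 1 and 3, where the probe was not well above background, and against siControl 2 and 4 alone the value was -0.45. The calgranulins S100A8, S100A9 and S100A12, abundant in myeloid cells, and S100A7, or psoriasin, of inflamed skin, were not called. Their log2 fold changes were -0.01 for S100A8 (adjusted p = 0.972), -0.76 for S100A9 (adjusted p = 0.114), 0.05 for S100A12 (adjusted p = 0.816) and -0.07 for S100A7 (adjusted p = 0.879). S100A9 was well above background on 1 array, S100A8 and S100A12 on 6 and S100A7 on 8. S100A7A, a near-copy of S100A7, was above background on 0 arrays. S100Z, on another chromosome, had a log2 fold change of 0.41 (adjusted p = 0.605).

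**Figure D3:**
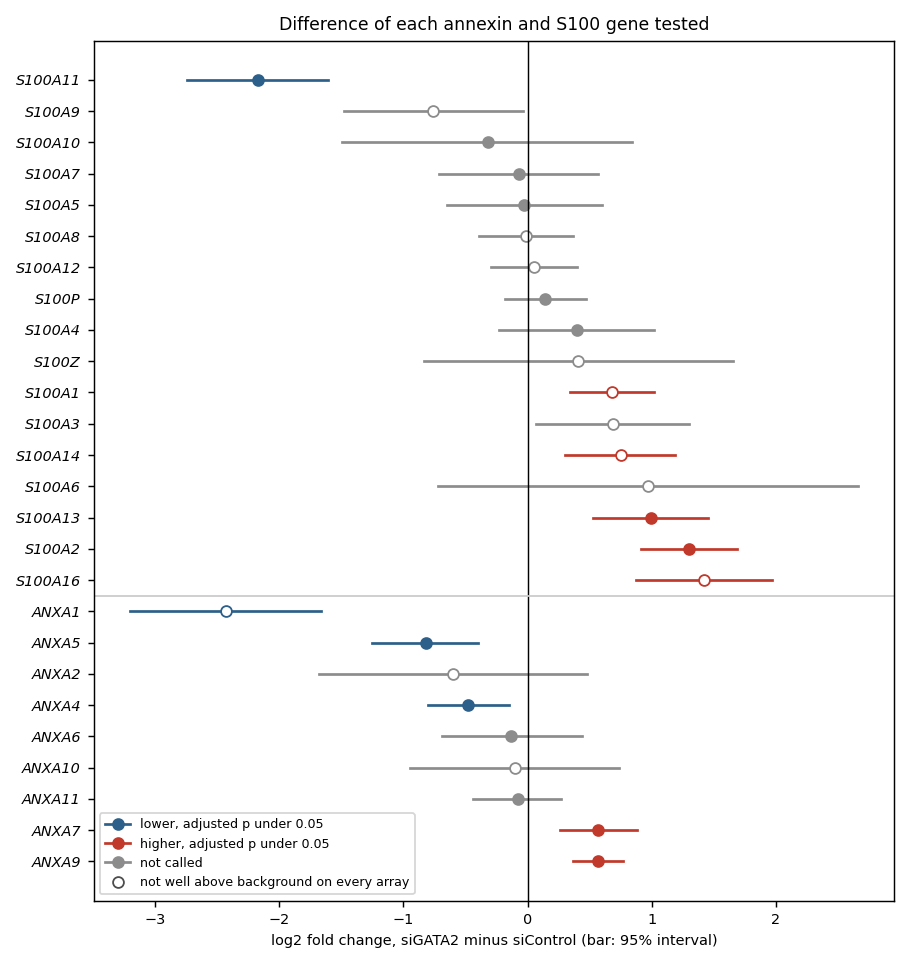
Log2 fold change (horizontal axis, siGATA2 minus siControl, bar 95% interval) of the 17 S100 and 9 annexin genes tested, each family ordered by its value. Blue is lower and red higher at an adjusted p under 0.05, grey is not called, and open circles are genes not well above background on every array. S100A11 at -2.17 and ANXA1 at -2.43 lie farthest to the left, and S100A6 has the widest interval.

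Seen by known partners, S100A11 and ANXA1 were both called lower, at -2.17 and -2.43, while S100A10 and ANXA2, at -0.32 and -0.60, and S100A6 and ANXA11, at 0.97 and -0.08, were not called. Other binding partners and receptors were taken from a list of 23 genes, of which 22 were tested. There 5 were lower, 5 higher and 12 not called, beside 14.2% lower and 12.3% higher of all genes (median 0.19, against 0.09 over all genes). TRPV6, a calcium channel that S100A10 with ANXA2 carries to the cell surface, had the largest fall of the list (log2 fold change -2.96, SE 0.305, adjusted p = 0.000279). It lay within 5.98 to 7.19 on the siGATA2 arrays and within 9.47 to 9.73 on the siControl arrays. PLA2G4A, the cytosolic phospholipase A2 that annexins inhibit and S100A10 binds, followed (-1.35, SE 0.173, adjusted p = 0.000847). It was close to background, within 3.39 to 3.70 against 4.47 to 5.17, with 3 of 4 siControl arrays well above background.

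MCAM, a cell adhesion molecule and receptor of S100A8 with S100A9, had the largest rise of the list, from 5.54 to 6.83 on the siControl arrays to 8.37 to 9.55 on the siGATA2 arrays (log2 fold change 2.61, SE 0.377, adjusted p = 0.00155). MYH9, the nonmuscle myosin heavy chain that S100A4 takes apart, was higher (1.39, SE 0.104, adjusted p = 6.64e-05). IQGAP1, a scaffold that S100P binds, had a log2 fold change of 1.23 (SE 0.160, adjusted p = 0.000912). AHNAK, a giant scaffold held at the membrane by S100A10 with ANXA2, had one of 1.01 (SE 0.136, adjusted p = 0.00111). S100A10, S100A4 and S100P, the S100 genes of these partners, were not called.

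The copines and ferlins bind membranes in response to calcium, as annexins do, through other domains. Of 14 listed 11 were tested, and 2 were lower, 2 higher and 7 not called (median 0.09), beside 14.2% lower and 12.3% higher of all genes. CPNE2 was lower (log2 fold change -1.10, SE 0.184, adjusted p = 0.00325) and CPNE9 higher (1.54, SE 0.282, adjusted p = 0.00497). For CPNE9, 2 of 4 siControl arrays were well above background. CPNE6 was called higher too (adjusted p = 0.0199) but was well above background on 0 siControl arrays. Its rise was 2.81-fold with each siControl array set to the larger of its own value and the lowest signal of any probe well above background there. This is no firm lower bound. The S100A14 probe read 5.19 and 5.12 on siControl 1 and 3, above every CPNE6 value, without being well above background there. Of the 7 fused S100 genes, the filaggrin-like proteins of the skin encoded between S100A11 and S100A9, 4 were tested and limma called 0, with 0 at an unadjusted p under 0.05, and none was well above background on all 8 arrays.

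The groups of arrays did not overlap for any of the 11 genes called, which fixes their sign within each title set. Of the 15 not called, 7 had opposite signs in the title sets, ANXA6, ANXA10, ANXA11, S100A5, S100A8, S100A10 and S100Z. With the pair of title sets as a block, 12 of the 26 genes were called, a share similar to the 12955 of all 28850 genes. The 12 were the same 11 and S100A4.

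**Figure D4:**
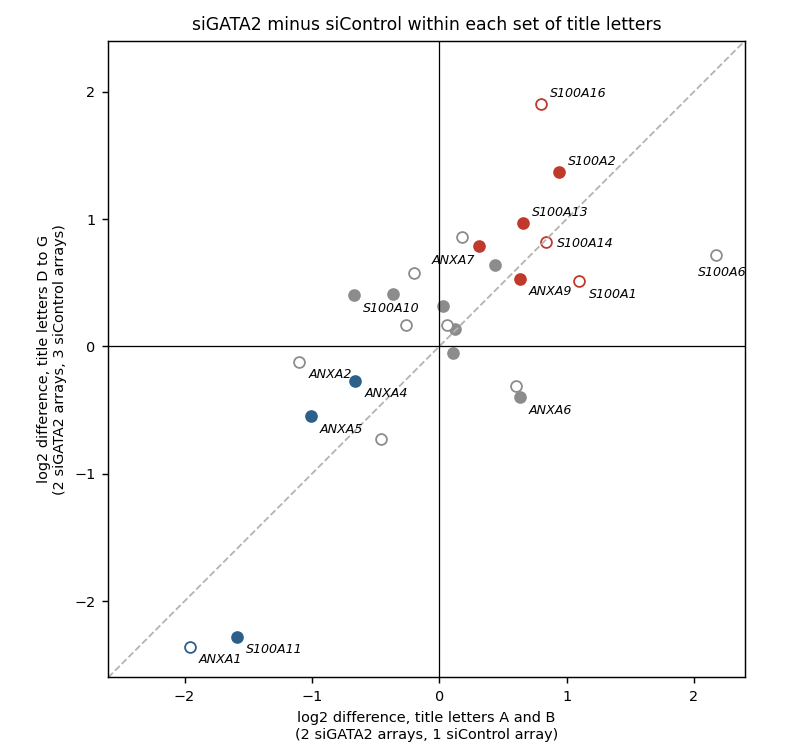
Log2 difference, siGATA2 minus siControl, of the 26 genes among arrays titled A and B (horizontal axis, 2 against 1 array) and among arrays titled D to G (vertical axis, 2 against 3 arrays), with the dashed line for equal values, colours and open circles by call and background. S100A16 lies farthest above the dashed line, at 0.80 and 1.90, and 7 genes that were not called have opposite signs on the axes. The called genes cannot, since their groups did not overlap.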

How the data were processed

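The authors deposited the scanner output of each array as Agilent Feature Extraction 11.0.1.1 wrote it, per the labels, of which the processed signal, an intensity per spot after background correction and not on a log scale, was used with its flags, and a matrix of log2 values of the same arrays, used as an alternative. The methods name quantile normalization in GeneSpring. The array design named in the files is not the one named in the methods. From the deposited intensity, spots marked as outliers were dropped, log2 values were averaged per probe, and arrays were quantile-normalized. Names and gene order came from a RefSeq table of GRCh38.p14. Probes without annotation (1914 of 42405) or with a mean under 3 did not enter the fit. Probes known by another accession (7255) or a noncoding locus (6872) counted as genes under that name where they passed this filter. Genes with several probes were represented by the one with the highest mean. Groups came from the labels, and all 8 arrays entered a fit with lmFit and eBayes of limma 3.58.1 in R 4.3.3, which replaced the t-test of the methods and was tested on simulated data. Intervals are 95% intervals of the fit.

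The genes, the lists and the markers were chosen with earlier results of these data known. Values on every array were given for genes called with a change of at least 2-fold or with a mean over 12, and for a few others chosen after their values were seen. Partners, copines, ferlins and fused S100 genes were named where they were called with a change of at least 2-fold. Arrays have no read depth, so their number and their signal over background limit the precision. Alternatives were 75th percentile and E1A spike-in scaling (7 probes), normexp with an offset of 50, the methods' t-test, array weights, other filters on low signals, the mean over probes, the deposited log2 values, fits without some arrays, and blocks by slide row and by replicate number. Both title letter alternatives were added after the data were seen. All arrays shared 1 slide, so the slide as a block could not be run.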

Additional observations from a re-analysis of the deposited data

Results flagged for a closer look

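In 4 of 52 groups of 4 arrays, 1 array stood apart from the other 3. Chance alone gives this in about 0.05 of groups, so the count is not far above that share. Each time the array was siControl 1 or siControl 3, the arrays with the fewest probes well above background. The size of the gap is given as its share of the whole range of the group, so a small gap can have a large share. For S100Z, siControl 3 read 1.87 against 4.20 to 4.33 (share 0.947). For S100A7, siControl 1 read 6.72 against 7.43 to 7.53 (share 0.877). For S100A13, siControl 1 read 13.34 against 12.62 to 12.72 (share 0.861). For ANXA9, siControl 3 read 10.55 against 10.47 to 10.48 (share 0.875), where the SD between spots of the probe on siControl 3 was 0.0584. S100A7, S100A13 and ANXA9 were well above background on all 8 arrays. The part of background in these gaps was not tested. Without siControl 1, S100A13 had a log2 fold change of 1.16 (adjusted p = 0.00125).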

How the results depend on the processing

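The main setting called 5 S100 genes higher and 1 lower, and 2 annexins higher and 3 lower. Without 1 array at a time these counts were 4 to 6, 1 to 1, 1 to 2 and 2 to 3, and without siControl 4 it was 1 annexin higher. E1A spike-in scaling called 0 S100 genes and 0 annexins higher and 1 annexin lower, and ANXA7 (-0.13) and ANXA9 (-0.04) changed sign. Scaling to the 75th percentile, siControl arrays 2 and 4 alone, and the mean over probes each called 1 annexin higher, and siControl 2 and 4 alone called 1 annexin lower. The slide row as a block called 3 S100 genes higher and 1 annexin lower. With the replicate number as a block 1 annexin was higher, and 8 of the 11 calls were kept, with adjusted p-values of 0.0558 for ANXA7, 0.0837 for ANXA4 and 0.0646 for S100A14. The numbers do not pair the arrays, as the deviations of arrays of the same number correlated at 0.537, -0.310, 0.170 and 0.224. Averaging the arrays of each title set, which left 2 values per group, gave 0, 0, 0 and 0 calls, and 0 calls among all 28850 genes. The cause of these changes was not tested.

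Over the single genes, 517 of 568 comparisons with an alternative kept their direction and their side of the threshold or were called in neither, 44 lost a call, 5 gained one and 2 were reversed. ANXA1 and S100A11 were called in 21 of 22 alternatives, all but the averaged title sets, and S100A2, S100A16 and S100A13 in all but that and spike-in scaling. The median over all genes was 0.18 with the 75th percentile and -0.42 with spike-in scaling. Signal over background limits S100A6, S100A9, S100Z, ANXA10 and ANXA2, for which several arrays give no more than a bound. Of the genes called, it also limits S100A1 and S100A14, well above background on 6 of 8 arrays each, and ANXA1 and S100A16, on 7.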

Other observations

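ANXA2R, which encodes a receptor-like protein for ANXA2 and is no annexin, was chosen after its values were seen. It read 10.31, 10.23, 8.50 and 8.56 on the siGATA2 arrays and 8.30, 7.62, 7.52 and 7.62 on the siControl arrays, well above background on all 8. The groups did not overlap, and the arrays titled A and B were the highest of each group. The log2 fold change was 1.64 (SE 0.473, adjusted p = 0.0363 from limma), with 1.98 within titles A and B and 0.95 within D to G. Its antisense neighbour ANXA2R-AS1 had a log2 fold change of 0.86 (adjusted p = 0.138).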
